A study of Mus musculus with 10 samples.

Results

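The 10 genes described here, B2m, H2-D1, H2-K1, H2-Q7, H2-T23, Tap1, Tap2, Tapbp, Psmb8 and Nlrc5, encode the machinery that presents peptides on MHC class I. They were taken by name from a matrix of 31053 genes, and all 10 were found in it. Levels are given as CPM, the unique molecular identifiers (UMIs) of a gene scaled to the total UMIs of the same cells in the same library.

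The study sorted CD45+ cells from whole mouse brains and sequenced their RNA with a droplet method that reads 3' ends, to ask whether the NLRP3 inflammasome shapes the response of microglia to amyloid. Each of the 10 libraries came from a pool of 3 brains, so a library, and not a cell, was the replicate. WT mice and NLRP3.KO mice, which lack Nlrp3 in the whole body, were profiled at 3, 6 and 9 months. APP/PS1 mice, which express mutant human APP and PS1 in neurons of the central nervous system and keep Nlrp3, and APP/PS1 NLRP3.KO mice, which carry the same transgenes and lack Nlrp3, were profiled at 3 and 9 months. Brains were dissociated in the presence of actinomycin D, an inhibitor of transcription. Each age was a batch of its own, so effects of age and of batch cannot be told apart. Libraries that were paired to compare transgenes or Nlrp3 genotypes always came from 1 batch.

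Class I molecules show fragments of a cell's own proteins to CD8 T cells. The immunoproteasome subunit Psmb8 cuts proteins into peptides, the transporter made of Tap1 and Tap2 moves them into the endoplasmic reticulum, and Tapbp (tapasin) helps load them onto a heavy chain that is paired with B2m (beta-2 microglobulin). H2-K1 and H2-D1 are classical heavy chains, whereas H2-Q7 (part of Qa-2) and H2-T23 (Qa-1) are non-classical, and Qa-1 is the ligand of inhibitory receptors on natural killer cells. Nlrc5 is the transactivator of class I genes, and interferons raise the whole set. Microglia at rest are known for low class I levels.

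Of the 10 genes, 8 lie in or beside the MHC on chromosome 17 (GRCm38). H2-K1 spans positions 33996017 to 34000347, Tap1 34187553 to 34197225, Psmb8 34197721 to 34201454, Tap2 34203527 to 34216321, H2-D1 35262730 to 35267499, H2-Q7 35439155 to 35443773 and H2-T23 36029773 to 36032855, and Tapbp lies on the same chromosome at 33915899 to 33929292. B2m lies on chromosome 2 at 122147686 to 122153083 and Nlrc5 on chromosome 8 at 94434356 to 94527272. All are annotated as protein-coding, with H2-K1 and H2-T23 on the minus strand. Heavy chains resemble each other, so the last 500 bases of their transcripts, where these reads fall, were compared with all other genes in windows of 91 bases. For H2-T23, 12.9% of windows occur in another gene (H2-T-ps, Hook2 or Rab33b), for H2-Q7 4.55% (H2-Q5) and for H2-K1 0.0756%, and the other members share none, so that reads of H2-T23 and H2-Q7 could in part be assigned elsewhere or dropped.

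The promoters of B2m and the 4 heavy chains are shown because these genes were higher with the transgenes in every pair of libraries described further on. Each line gives 200 bases before and 20 after the start of transcription in RefSeq (GRCm38.p6), 5' to 3' on the strand of the gene. Capitals mark matches, on either strand, to the interferon-stimulated response element (GAAANNGAAA), the NF-kB motif, the CCAAT box (CCAAT) and the CREB half-site (TGACG). The windows are B2m chr2:122147487-122147706 (plus strand), H2-D1 chr17:35262894-35263113 (plus), H2-K1 chr17:34000328-34000547 (minus, 1 of 2 entries), H2-Q7 chr17:35438955-35439174 (plus) and H2-T23 chr17:36032682-36032901 (minus).
B2m: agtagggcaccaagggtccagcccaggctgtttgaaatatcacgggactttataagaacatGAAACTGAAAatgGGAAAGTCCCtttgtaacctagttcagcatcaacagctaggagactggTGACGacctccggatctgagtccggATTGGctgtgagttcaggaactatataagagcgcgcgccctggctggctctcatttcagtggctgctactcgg
H2-D1: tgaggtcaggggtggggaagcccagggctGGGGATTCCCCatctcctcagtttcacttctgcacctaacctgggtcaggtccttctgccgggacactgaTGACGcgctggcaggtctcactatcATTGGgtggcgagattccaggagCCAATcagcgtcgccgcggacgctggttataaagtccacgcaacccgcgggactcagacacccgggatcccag
H2-K1: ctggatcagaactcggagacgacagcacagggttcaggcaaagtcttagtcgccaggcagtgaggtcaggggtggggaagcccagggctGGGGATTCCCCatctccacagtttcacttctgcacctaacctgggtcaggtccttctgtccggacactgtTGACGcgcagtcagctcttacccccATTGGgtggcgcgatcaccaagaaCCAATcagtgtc
H2-Q7: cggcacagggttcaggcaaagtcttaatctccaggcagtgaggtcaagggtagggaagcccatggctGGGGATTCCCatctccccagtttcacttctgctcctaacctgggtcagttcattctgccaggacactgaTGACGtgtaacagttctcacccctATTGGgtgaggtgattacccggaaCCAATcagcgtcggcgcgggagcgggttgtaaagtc
H2-T23: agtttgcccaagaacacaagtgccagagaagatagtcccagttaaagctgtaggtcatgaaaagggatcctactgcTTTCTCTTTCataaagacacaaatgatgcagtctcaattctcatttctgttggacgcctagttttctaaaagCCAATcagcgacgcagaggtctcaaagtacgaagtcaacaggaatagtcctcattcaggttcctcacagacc

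The RefSeq start of H2-D1 lies within the gene as the other annotation draws it. Of the 10 members, 8 had a promoter entry, and Tap2 and Nlrc5 had none. In the full windows of 250 bases before and 50 after the start, the interferon-stimulated response element matched in B2m and H2-T23 only, 2 of 8 members against 3.44% of all 32851 promoters. The NF-kB motif matched in B2m, H2-D1, H2-K1 and H2-Q7, 4 of 8 members against 8.46% of all promoters, and in H2-D1, H2-K1 and H2-Q7 the matches on both strands overlap each other. The CCAAT box was found in 7 of 8 members (37.4% of all promoters) and the CREB half-site in 5 of 8 (20.8%). The printed sequences of H2-D1, H2-K1 and H2-Q7 are much alike around the NF-kB, CREB and CCAAT matches, so these counts do not rest on independent promoters. These are matches of letters and not sites shown to be bound. Variants outside the letters given were not counted, so a promoter without a match may still hold a related element.

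The 10 labelled libraries held 45472 cells, of which the study's own annotation called 40547 microglia, with 1755 to 8208 microglia and 9357431 to 35107144 UMIs per library. Microglia carried their defining markers P2ry12 (3183 CPM), Tmem119 (1579 CPM), Sall1 (367 CPM) and Cx3cr1 (4866 CPM). Nlrp3 had 390 to 1425 UMIs in the microglia of the 5 libraries that keep the gene and 0 in each of the 5 that lack it, which allows up to 3 UMIs per library by counting error. The summed T cell markers in microglia lay between 0.402 and 2.65 CPM, or 0.0114% to 0.0748% of their level in T cells. Of 45225 barcode sequences, 246 occurred in more than 1 library.

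Within microglia, the heavy chains H2-D1, H2-K1 and H2-Q7 were lowest in the homeostatic state in 10 of 10 libraries, and the interferon-response state was the highest for most members. The study names 6 states: homeostatic (HM, 31953 cells), transitioning toward disease-associated (TM, 2538), disease-associated (DAM, 901), interferon-response (IRM, 2271), proliferating (PM, 790) and a state with immediate-early genes (IEG, 2094) that it relates to dissociation. States were clustered on the same counts, so their levels are a description with no test. They come from the clustering of microglia alone, and the labels deposited for all cells together draw the states differently, with 1416 DAM and 3600 TM cells.

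The interferon-response state exceeded HM for all 10 members in 10 of 10 libraries. The share of all genes higher in IRM than in HM in every library was not computed. The median ratio of IRM to HM over libraries was 10.4 for Nlrc5 (range 5.21 to 46.9), 6.04 for H2-Q7 (3.41 to 11.9) and 3.17 for Tap1 (2.75 to 4.38). It was 2.23 for H2-T23, 2.20 for H2-K1 and 2.16 for H2-D1, and the smallest ratios were those of B2m (1.67), Psmb8 (1.52), Tap2 (1.40) and Tapbp (1.31). By these medians the transactivator stood furthest above HM and the loading factor Tapbp least, although Nlrc5 rests on few UMIs (15 to 47 per library in HM and 11 to 49 in IRM).

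The states divided the members. H2-D1 was highest in TM in 7 of 10 libraries, at 1726 CPM over all TM (95% exact Poisson interval 1704 to 1749, which covers counting error only) against 1476 in IRM, 1543 in DAM and 671 in HM. With the labels drawn over all cells TM was not the highest, at 1386 CPM against 1537 in IRM and 1584 in DAM. H2-K1 was highest in IRM in 7 libraries, with 1328 CPM in DAM, 1238 in IRM, 1089 in TM and 535 in HM. The ratio of H2-K1 to H2-D1 UMIs, which compares both classical heavy chains within the same cells, was 0.631 in TM (0.574 to 0.772 over libraries), 0.798 in HM (0.719 to 0.932) and 0.860 in DAM (0.620 to 1.05). H2-T23 was highest in IRM in 9 libraries, at 420 CPM against 235 in TM, 231 in DAM, 196 in HM, 187 in IEG and 169 in PM. PM was its lowest state in 6 libraries.

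H2-Q7 stood at 12.5 CPM in HM, 38.1 in IEG, 69.3 in TM, 75.1 in PM, 81.3 in IRM and 83.5 in DAM. With the labels drawn over all cells it had 40.9 CPM in TM and 13.3 in HM. Tap1 had 140 CPM in IRM, 86.8 in PM, 63.2 in DAM, 59.9 in TM and 42.3 in HM. Tap2, its partner, moved little, between 83.3 CPM in PM and 121 in IRM.

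Levels in DAM differed between libraries with few and with many such cells, in large part through 1 library. The 3 libraries with fewer than 50 DAM (92 cells in all: WT, NLRP3.KO and APP/PS1 at 3 months) had 508 CPM of H2-T23 (452 to 569) against 200 (188 to 212) in the 809 DAM of the other 7 libraries. For Tap1 these values were 167 and 51.4 CPM, and for Nlrc5 30.4 and 5.75 CPM. The NLRP3.KO library of 3 months, with 37 DAM, held 167 of the 301 H2-T23 UMIs, 71 of the 99 Tap1 UMIs and 14 of the 18 Nlrc5 UMIs of the smaller group. Without it the other 2 libraries (55 cells) had 345 CPM of H2-T23 (289 to 408), 72.1 of Tap1 (47.9 to 104) and 10.3 of Nlrc5 (2.81 to 26.4), and for Tap1 and Nlrc5 these intervals overlap those of the larger group. B2m (3002 and 2584 CPM), H2-D1 (1907 and 1502) and H2-K1 (1411 and 1318) differed less, and H2-K1 was lower in the smaller group without that library (1179 CPM). Over the 10 libraries B2m in DAM ranged from 1404 to 4401 CPM, so its pooled values hide a wide spread. The 3 smaller libraries are all of 3 months and 6 of the other 7 of 6 or 9 months, so this split cannot be told apart from age and batch. The remaining library of 3 months, APP/PS1 NLRP3.KO with 83 DAM, had 313 CPM of H2-T23 (270 to 361), 52.7 of Tap1 and 4.94 of Nlrc5. Its B2m, at 4401 CPM (4236 to 4571), was the highest of all libraries. The split was chosen after the values were seen. By the labels drawn over all cells 2 of the 3 smaller libraries hold more than 50 DAM (60 in WT and 64 in NLRP3.KO).

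Among the 11 classes compared over libraries, T cells and NK cells had the highest mean levels of H2-D1, H2-K1 and H2-Q7. T cells had 1226 ± 144 CPM of H2-Q7 (SD, n = 10 libraries) and NK cells 1173 ± 151 (n = 7 libraries with at least 20 cells), which overlapped each other and none of the other 9 classes compared. B cells followed at 218 ± 69.9 (n = 8), border-associated macrophages (BAM) at 134 ± 55.4 (n = 10) and HM at 14.6 ± 7.25 (n = 10). H2-K1 gave the same break, with NK cells at 3528 ± 297 CPM and T cells at 3394 ± 333 above BAM at 1729 ± 185, and HM last at 570 ± 107. The lymphoid cells annotated NKT and ILC2 reached 20 cells in only 3 and 2 libraries, and were not among the 11 classes.

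H2-D1 fell off more gradually, from 3073 ± 301 CPM in NK cells to 2554 ± 240 in T cells, 2356 ± 242 in BAM, 1716 ± 143 in TM and 692 ± 118 in HM, and in the full order of 11 classes, with others between those named, every neighbouring pair overlapped. The H2-K1 to H2-D1 ratio was 1.37 in T cells (1.12 to 1.53 over libraries) and 0.705 in BAM (0.582 to 1.03), so the more abundant classical heavy chain by UMIs differed between them. B2m ran from 1320 ± 236 CPM in B cells to 2748 ± 227 in TM, again without a gap between neighbouring classes. Psmb8 separated T cells (929 ± 75.4) from NK cells (703 ± 39.0) and both from BAM (492 ± 72.6), with HM at 232 ± 16.0.

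H2-T23 followed another order, in which IRM (398 ± 108 CPM), BAM (379 ± 96.8), NK cells (352 ± 89.2) and T cells (297 ± 71.7) overlapped, and HM (182 ± 48.2), IEG (179 ± 44.9) and PM (168 ± 67.4) were last. Nlrc5 was led by T cells (63.7 ± 15.7) and NK cells (47.2 ± 12.5), then IRM (23.9 ± 8.82), BAM (19.9 ± 5.12) and HM (2.22 ± 1.06). Tapbp varied least among classes by ratio, between 126 ± 17.8 CPM in B cells and 230 ± 13.4 in IRM.

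For single members, some classes with few cells had levels above or below the means of all 11 classes. The 102 cells annotated pDC had 649 CPM of H2-T23 (599 to 703), and the 138 cells annotated Mono NC had 4262 CPM of H2-D1 (4126 to 4401) and 4132 of B2m (3998 to 4269). The 79 neutrophils had 741 CPM of B2m (689 to 796) and 338 of H2-K1 (303 to 376). These classes reached 20 cells in at most 2 libraries, and the intervals cover counting error only.

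**Figure D1:**
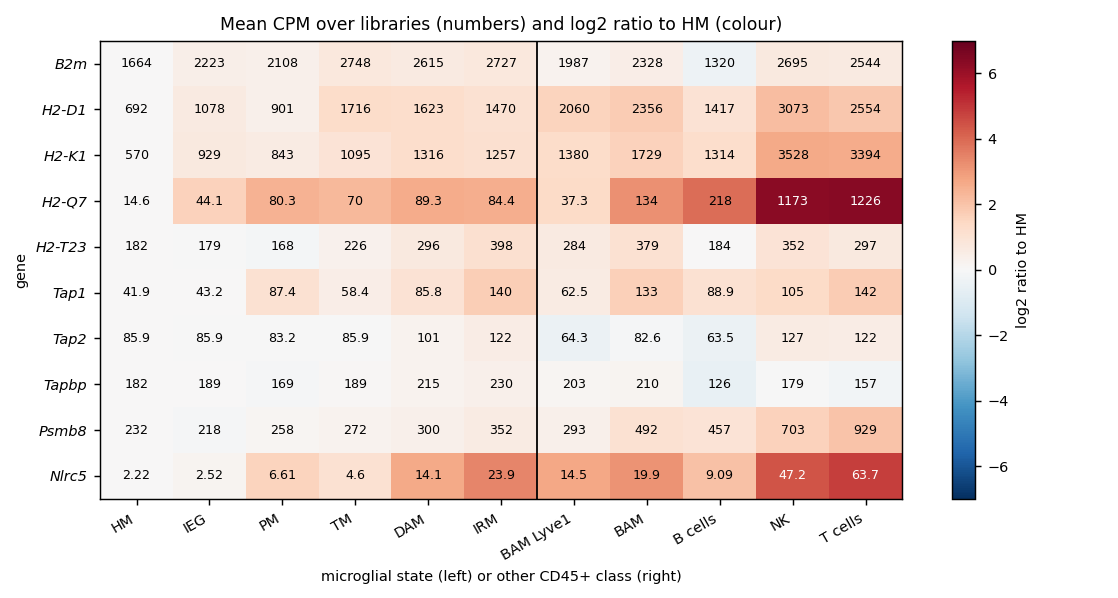
Levels of the 10 class I genes in 6 microglial states and 5 other classes of CD45+ cells. Numbers are mean CPM over the libraries with at least 20 cells of the class, and colour gives the log2 ratio to homeostatic microglia; the T cell and NK columns are the most coloured for H2-Q7 (1226 and 1173 CPM against 14.6), and Tap2 and Tapbp change colour least.

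The first comparison asked how the transgenes changed class I genes in microglia, over 4 pairs of libraries that differ in APP/PS1 and share age and Nlrp3 genotype. B2m and the 4 heavy chains were higher with the transgenes in 4 of 4 pairs, by 1.13-fold to 2.61-fold, and the processing genes were not. No member passed the adjusted threshold in the main test, where all genes called made up 0.057% of 12282.

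H2-Q7 stood at 24.2 and 57.5 CPM in APP/PS1 at 3 and 9 months and at 27.0 and 56.1 CPM in APP/PS1 NLRP3.KO, against 15.9 and 39.9 CPM in WT and 13.7 and 21.4 CPM in NLRP3.KO. Each transgenic library exceeded its partner, by 1.44-fold to 2.61-fold, but the groups overlapped because WT at 9 months lay above both transgenic libraries of 3 months. The log2 fold change was 0.88 ± 0.14 (SE, 4 pairs; adjusted p = 0.162).

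H2-D1 had 890 and 1179 CPM in APP/PS1 and 938 and 1175 CPM in APP/PS1 NLRP3.KO, against 687 and 861 CPM in WT and 702 and 679 CPM in NLRP3.KO at the same ages. B2m had 2042 and 2026 CPM in APP/PS1 and 1915 and 2542 CPM in APP/PS1 NLRP3.KO, against 1650 and 1735 CPM in WT and 1608 and 1667 CPM in NLRP3.KO. For these 2 genes all 4 transgenic libraries lay above all 4 others, which held for 1.38% of all genes tested. The log2 fold change was 0.53 ± 0.09 for H2-D1 (adjusted p = 0.186) and 0.37 ± 0.08 for B2m (adjusted p = 0.372).

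H2-K1 had 654 and 1050 CPM in APP/PS1 and 682 and 989 CPM in APP/PS1 NLRP3.KO, against 545 and 764 CPM in WT and 548 and 611 CPM in NLRP3.KO. The pairs differed by 1.20-fold to 1.62-fold and the groups overlapped, with a log2 fold change of 0.45 ± 0.09 (adjusted p = 0.257). H2-T23 differed by 1.13-fold to 1.40-fold within pairs (0.29 ± 0.07, adjusted p = 0.399). A level higher in every pair was found for 8.6% of all genes and for 5 of the 10 members.

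The other 5 members were not higher in every pair. Tap1 was higher in 3 pairs and level in 1 (0.9997-fold). The log2 fold change was 0.22 ± 0.07 for Tap1 (adjusted p = 0.540) and 0.47 ± 0.25 for Nlrc5 (adjusted p = 0.700), which was lower with the transgenes in the NLRP3.KO pair of 3 months. It was 0.03 ± 0.05 for Psmb8, 0.01 ± 0.06 for Tapbp and 0.00 ± 0.05 for Tap2. The median over the 10 members was 0.33, against 0.00 over all genes tested.

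Tools differed on these calls. Of the 10 members, 0 were called by edgeR after adjustment, 6 had an unadjusted p under 0.05 (7.47% of all genes did), and DESeq2 called 4, namely H2-D1 (adjusted p = 8.6e-05), H2-Q7 (8.6e-05), H2-K1 (0.0031) and B2m (0.023), where 0.423% of all genes were called. Without the 9-month pair of WT and APP/PS1, edgeR called H2-Q7 (0.99 ± 0.13, adjusted p = 0.0326), whereas over all alternatives the adjusted p of H2-Q7 lay between 8.6e-05 and 0.943, that of H2-D1 between 8.6e-05 and 0.706, that of H2-K1 between 0.0031 and 0.944 and that of B2m between 0.023 and 0.869.

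The makeup of the microglia moved with the transgenes. IRM made up 6.58%, 7.53%, 8.17% and 10.0% of microglia in the 4 transgenic libraries and 3.61% to 6.50% in the 4 others of the same ages. DAM reached 11.7% in APP/PS1 and 11.5% in APP/PS1 NLRP3.KO at 9 months, against 2.34% in WT and 3.79% in NLRP3.KO. Within HM alone the log2 fold change was 0.96 ± 0.10 for H2-Q7 (adjusted p = 0.0654), 0.45 ± 0.07 for H2-D1, 0.35 ± 0.07 for H2-K1 and 0.26 ± 0.06 for B2m, and within IRM alone it was 0.23 ± 0.14, 0.18 ± 0.06, 0.08 ± 0.06 and 0.14 ± 0.05. The direction of the fitted values for these 4 genes held in both states, although H2-Q7 in IRM was lower in 1 of 4 pairs (0.864-fold). The sizes in IRM were smaller, a difference that was not tested.

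Markers of other cells in microglia also differed with the transgenes. The 4 T cell markers summed to 0.836 to 2.45 CPM in transgenic libraries and 0.402 to 1.06 CPM in their partners, or at most 0.0692% of the level in T cells. The 3 monocyte markers summed to 7.78 to 19.0 and 5.66 to 7.74 CPM, at most 0.312% of the level in monocytes, and the 4 border macrophage markers to 7.31 to 13.5 and 4.23 to 7.95 CPM, at most 1.06% of the level in BAM. Their part in the class I differences was not tested.

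**Figure D2:**
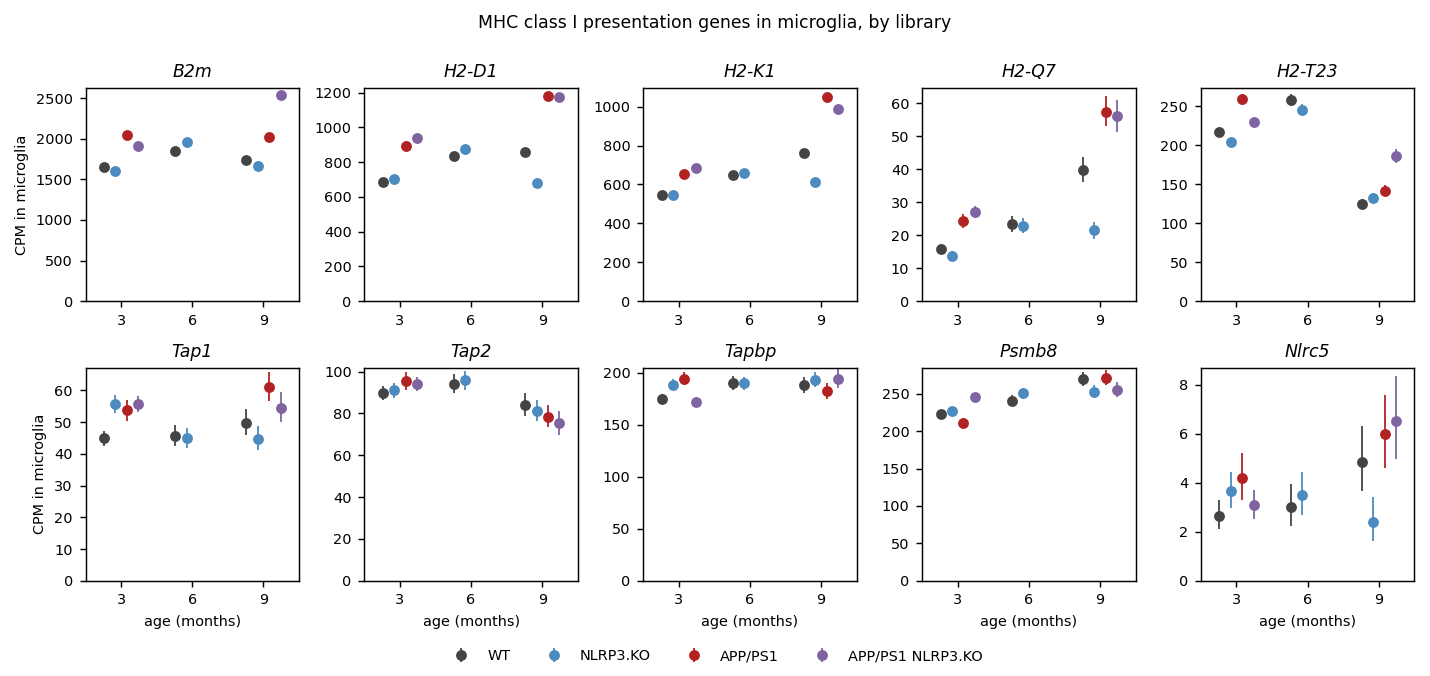
CPM of each class I gene in the microglia of the 10 libraries, by genotype and age, with 95% exact Poisson intervals as error bars and each axis from 0. H2-D1 and B2m of the 4 transgenic libraries lie above their partners of the same age (for H2-D1, 890 to 1179 against 679 to 861 CPM), and H2-T23 is lowest at 9 months (125 to 186 CPM).

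The second comparison, over 5 pairs, asked whether loss of Nlrp3 changed class I genes in microglia. No member differed beyond the spread between pairs. The log2 fold changes ran from -0.18 ± 0.13 for H2-Q7 to 0.05 ± 0.07 for B2m, 5 above and 5 below 0, with adjusted p between 0.906 and 0.9997 in edgeR. Of the 10 members, 0 were called, 0 had an unadjusted p under 0.05 and 0 were called by DESeq2, where the main test called 0.0404% of 12383 genes.

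Single pairs went both ways. At 9 months without transgenes, NLRP3.KO had 0.538 times the H2-Q7, 0.788 times the H2-D1 and 0.800 times the H2-K1 of WT, and at 9 months with transgenes the ratios were 0.977, 0.996 and 0.942. H2-T23 was 1.32 times as high in APP/PS1 NLRP3.KO as in APP/PS1 at 9 months and 0.889 times as high at 3 months. With 1 library per group, single pairs carry no test.

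**Figure D3:**
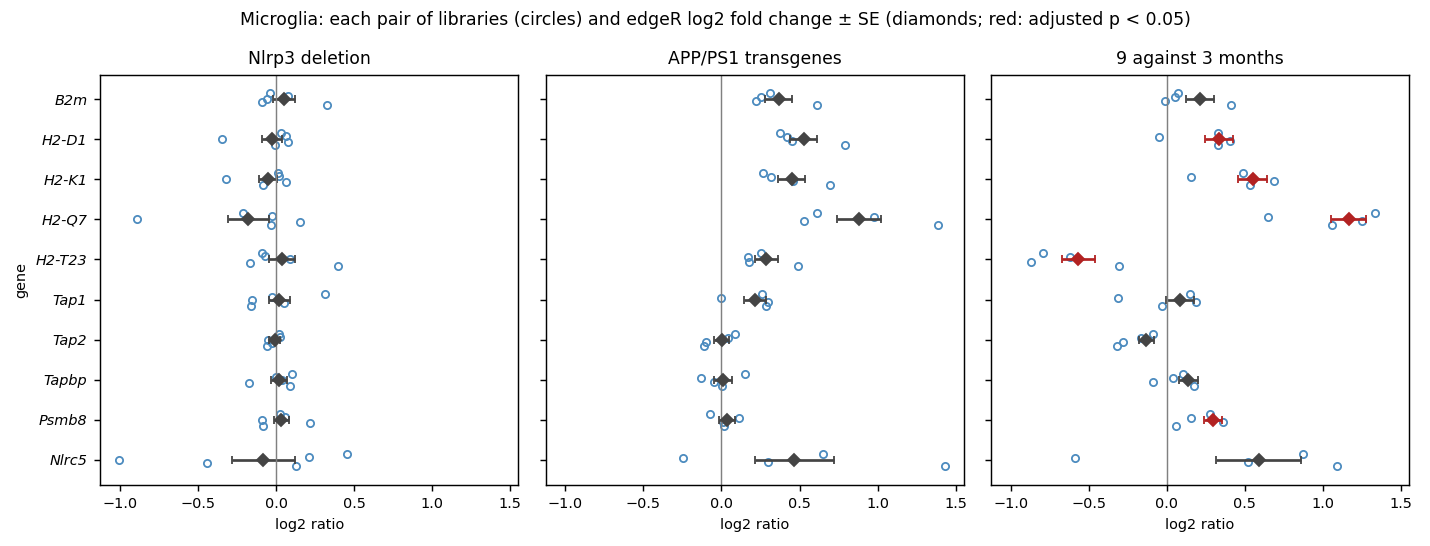
Log2 ratios of each class I gene in microglia for the transgenes, Nlrp3 deletion and age. Circles are pairs of libraries and diamonds the fitted log2 fold change with its SE, red where the adjusted p was under 0.05; red diamonds occur only for age (H2-Q7 at 1.17, H2-K1 at 0.55, H2-D1 at 0.34, Psmb8 at 0.30 and H2-T23 at -0.57).

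Whether the effects depend on each other was tested with interaction terms. Of the 10 members, 0 were called by edgeR or DESeq2 in any of the 3 tests, and 1, 1 and 0 had an unadjusted p under 0.05. edgeR called 0 genes of the whole table in each test. The transgene effect on H2-K1 was larger at 9 than at 3 months by 0.36 ± 0.12 on the log2 scale (adjusted p = 0.880 by edgeR). The transgene effect on H2-Q7 was larger with Nlrp3 deletion than without by 0.62 ± 0.17 (adjusted p = 0.994 by edgeR), and the adjusted p was 0.0241 when the 3-month pair of WT and APP/PS1 was left out, a fit that called 412 of 12229 genes. The Nlrp3 effect on H2-Q7 with against without the transgenes differed by 0.46 ± 0.24 (adjusted p = 1 by edgeR).

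The third comparison set 9 against 3 months over the 4 genotypes, and since each age is a batch it measures age and batch together. It shares its libraries with the first comparison. Class I genes of microglia split: H2-Q7, H2-K1, H2-D1 and Psmb8 rose, H2-T23 fell, and the other 5 did not pass. Of the 10 members 5 were called, while 23.3% of all 12282 genes were, and 4 were called higher against 12.7% of all genes.

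H2-T23 in microglia had 217 CPM in WT, 205 in NLRP3.KO, 259 in APP/PS1 and 230 in APP/PS1 NLRP3.KO at 3 months, 258 in WT and 246 in NLRP3.KO at 6 months, and 125, 133, 142 and 186 at 9 months in the order of the 3-month values. All 4 libraries of 9 months lay below all 6 younger ones. The log2 fold change from 3 to 9 months was -0.57 ± 0.10 (adjusted p = 0.0127), and the 9-month libraries held 1419 to 1743 UMIs of the gene each, so that counting error is small.

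H2-Q7 rose by 1.17 ± 0.11 (adjusted p = 0.0021), from 20.2 ± 6.41 CPM (SD, n = 4) at 3 months to 43.7 ± 16.9 at 9 months, by 1.57-fold to 2.51-fold within genotypes. H2-K1 rose by 0.55 ± 0.09 (adjusted p = 0.00996), from 607 ± 71.1 to 853 ± 203 CPM. Both were higher at 9 months in 4 of 4 genotypes. At 6 months H2-Q7 stood at 23.3 CPM in WT, between its values of 3 months (15.9) and 9 months (39.9), and at 22.8 CPM in NLRP3.KO, above both its 3-month (13.7) and its 9-month value (21.4).

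Psmb8 rose by 0.30 ± 0.06 (adjusted p = 0.0154), with 211 to 246 CPM at 3 months and 253 to 271 CPM at 9 months and no overlap. H2-D1 rose by 0.34 ± 0.09 (adjusted p = 0.0356) but was not higher in NLRP3.KO, at 702 CPM at 3 months and 679 CPM at 9 months. Its call was lost within HM (0.15 ± 0.08, adjusted p = 0.214), without cells of high doublet score (adjusted p = 0.0652) and without any 1 of 3 genotypes. Leaving out APP/PS1 left H2-Q7 as the 1 member called, with adjusted p of 0.0541 for H2-K1, 0.0672 for H2-T23 and 0.0635 for Psmb8. Over all alternatives the adjusted p lay between 9.1e-14 and 0.0242 for H2-Q7, 1.2e-05 and 0.0541 for H2-K1, 5.8e-05 and 0.0672 for H2-T23, 0.00187 and 0.125 for Psmb8, and 0.0101 and 0.214 for H2-D1.

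Tap2 was lower at 9 months in 4 of 4 genotypes without overlap (75.2 to 84.2 against 89.7 to 95.5 CPM) and did not pass (-0.13 ± 0.05, adjusted p = 0.0905). B2m (0.21 ± 0.09, adjusted p = 0.128), Tapbp (0.14 ± 0.06, adjusted p = 0.152), Nlrc5 (0.59 ± 0.27, adjusted p = 0.159) and Tap1 (0.08 ± 0.09, adjusted p = 0.539) did not pass either. The 9-month and 3-month groups did not overlap for 3 of the 10 members, H2-T23, Psmb8 and Tap2, and for 33.1% of all genes. DESeq2 called 5 members and 17.8% of all genes, and 7 members and 38.6% of all genes had an unadjusted p under 0.05 in edgeR.

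The makeup of microglia also differed between these ages. HM made up 78.9% to 87.7% of microglia at 3 months and 53.7% to 78.3% at 9 months, TM 3.42% to 6.52% and 7.77% to 11.3%, and DAM 0.431% to 1.01% and 2.34% to 11.7%. The part of these shares in the differences was not tested, beyond the values within states that follow.

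Within single states, the members called in HM were H2-K1 (0.37 ± 0.08), H2-Q7 (0.80 ± 0.11), H2-T23 (-0.64 ± 0.09), Psmb8 (0.23 ± 0.06) and Nlrc5 (0.85 ± 0.23, adjusted p = 0.0392, from 15 to 47 UMIs per library; range over alternatives 0.0245 to 0.915). Those called in IRM were H2-K1 (0.39 ± 0.06), H2-Q7 (0.78 ± 0.14) and H2-T23 (-0.61 ± 0.11). The 5 members called in HM stand against 16.4% of 11887 genes called there, and the 3 in IRM against 6.77% of 8717. The change of H2-T23 was as large within both states as over all microglia. T cell markers in microglia summed to 0.402 to 1.25 CPM at 3 months and 0.697 to 2.45 CPM at 9 months.

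The level of H2-T23 was lower at 9 months outside microglia too, in cells that were looked at after the microglial value was seen. In BAM it stood at 487, 392, 465 and 465 CPM at 3 months (WT, NLRP3.KO, APP/PS1 and APP/PS1 NLRP3.KO) and at 300, 239, 262 and 286 CPM at 9 months. It fell by 0.66 ± 0.13 on the log2 scale there (adjusted p = 0.0106), and it was the 1 member called in BAM, where 2.24% of 5928 genes were, although without the NLRP3.KO or the APP/PS1 genotype 0 members were called.

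In T cells H2-T23 had 279, 332, 385 and 326 CPM at 3 months and 206, 245, 194 and 256 CPM at 9 months in the same order of genotypes. All 4 values of 9 months lay below those of 3 months, but the fitted change of -0.40 ± 0.15 did not pass (adjusted p = 0.206 by edgeR). The share of all genes separated in this way was not computed in T cells. Of the 10 members 0 were called in T cells by edgeR or DESeq2, where 2.67% of 6174 genes were called by edgeR, and 4 had an unadjusted p under 0.05, as did 15.5% of all genes. The T cells rest on 27 to 98 cells per library at 3 months and 61 to 504 at 9 months.

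NK cells gave 412, 378, 346 and 368 CPM of H2-T23 at 3 months and 254, 232, 174 and 229 CPM at 9 months, with no test. The 9-month values of WT, NLRP3.KO and APP/PS1 NLRP3.KO came from 16, 18 and 10 NK cells, under the minimum of 20 used elsewhere, and from as few as 14 UMIs. The mean of H2-Q7 was not lower in T cells, at 1171 ± 94.6 CPM at 3 months and 1285 ± 161 CPM at 9 months. It was higher at 9 months in 3 of 4 genotypes with overlapping groups, and did not pass (0.29 ± 0.09, adjusted p = 0.147 by edgeR). H2-Q7 and H2-T23 moved in opposite directions with age and batch in microglia, by 1.17 and -0.57 on the log2 scale. H2-D1, called higher at 9 months in microglia, had lower CPM at 9 months in BAM, T cells and NK cells. Its mean in BAM was 2120 CPM at 9 months and 2580 at 3 months, and in T cells 2362 and 2710. In both classes H2-D1 was lower in 4 of 4 genotypes without overlap, but edgeR did not call it. The share of all genes without overlap was not computed in BAM or T cells, and in microglia it was 33.1%. In NK cells H2-D1 was lower in 4 of 4 genotypes with overlapping groups and no test.

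**Figure D4:**
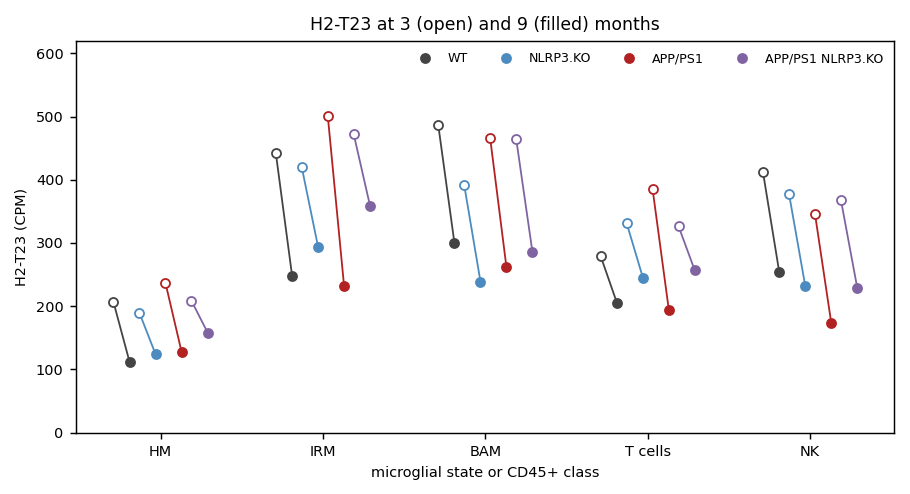
H2-T23 in CPM at 3 months (open) and 9 months (filled) for 4 genotypes in HM, IRM, BAM, T cells and NK cells. In each of the 5 cell groups the 4 points of 9 months lie below the 4 of 3 months (HM 111 to 158 against 189 to 237 CPM, BAM 239 to 300 against 392 to 487 CPM); 3 of the NK points of 9 months rest on fewer than 20 cells, and age and batch cannot be told apart.

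The transgenes and Nlrp3 deletion were also tested in T cells and BAM, which had at least 20 cells in every library. In each of these 4 tests, 0 of the 10 members were called by edgeR or DESeq2. All genes called made up 0.178% (transgenes in T cells), 0.725% (transgenes in BAM), 0% (Nlrp3 in T cells) and 0.0746% (Nlrp3 in BAM). A single member had an unadjusted p under 0.05, Nlrc5 in T cells of mice without Nlrp3 (-0.39 ± 0.14, adjusted p = 0.9996 by edgeR). For the transgenes H2-D1 changed by 0.01 ± 0.09 in T cells and -0.11 ± 0.07 in BAM, and H2-Q7 by -0.04 ± 0.09 and 0.06 ± 0.20. In T cells 5 members had fitted values above 0 and 5 below. H2-K1 (0.831-fold to 0.937-fold) and Nlrc5 (0.639-fold to 0.927-fold) were lower there in 4 of 4 pairs, with overlapping groups. The share of all genes lower in every pair was not computed in T cells. Whether these values differ from microglia was not tested.

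Other genes of the pathway were read from lists. At 9 against 3 months in microglia, 10 of 12 type I interferon-stimulated genes rose, against 12.7% of all genes called higher, with a median log2 fold change of 0.69 against 0.00 over all genes, among them Ifi27l2a (1.46 ± 0.16), Oasl2 (1.25 ± 0.13), the interferon-signalling protease Usp18 (1.0 ± 0.15) and the antiviral Ifit3 (0.83 ± 0.16). MHC class II genes, which present peptides to CD4 T cells, had 4 of 7 rise, among them Cd74, the invariant chain (1.62 ± 0.25), and the beta chain H2-Ab1 (1.22 ± 0.23), which were higher in 4 of 4 genotypes. Of 16 other class I heavy chains and relatives 10 were tested and 3 rose, H2-Q6 (1.0 ± 0.19), H2-Q10 (0.72 ± 0.18) and H2-T24 (0.25 ± 0.08).

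Around the proteasome, the activator subunits Psme1 (0.49 ± 0.06) and Psme2 (0.31 ± 0.06) rose, 2 of 4 in that list, and 0 of 3 standard catalytic subunits were called by edgeR. Of 5 other loading and trimming genes, the tapasin relative Tapbpl rose (0.23 ± 0.05), and the chaperones Pdia3 (-0.21 ± 0.05) and Canx (-0.18 ± 0.05) fell. Of 13 regulators of class I genes, 3 were called higher and 1 lower, near the 23.3% of all genes called in either direction. Of these 4 called genes, the 1 that moved the same way in all 4 genotypes was Ifnar1, a chain of the type I interferon receptor, which fell (-0.25 ± 0.05).

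For the transgenes, 0 genes of any of these lists were called by edgeR, and 10 of 12 interferon-stimulated, 4 of 7 class II and 6 of 10 other class I genes had an unadjusted p under 0.05, as did 7.47% of all genes. The median was 0.54 for the interferon-stimulated genes and 0.86 for class II. For Nlrp3 deletion 0 genes of these lists were called, 1 (of class II) had an unadjusted p under 0.05, and the median of the interferon-stimulated genes was 0.03. For the transgene effect with minus without Nlrp3 deletion, edgeR called 0 genes of these lists. An unadjusted p under 0.05 was found for 7 of 12 interferon-stimulated genes (median 0.51) and 4 of 7 class II genes (median -0.89). The same held for 446 of all 12282 genes.

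The genes whose level in microglia followed the mean of the 10 members most closely over the 10 libraries, among 6282 compared, were Phf11d (Pearson r = 0.92), Cd9 (0.91), Cd52 (0.90), Gusb (0.88) and Apoe (0.88). The members themselves ranged from 0.97 for H2-D1 to -0.05 for H2-T23 and -0.40 for Tap2. Each member is part of that mean, so these values cannot be set beside those of other genes. Over the 6 states the closest were Fcgr4 (0.997), Taldo1 (0.992), Ifi204 (0.978), Sdc3 (0.964) and Shisa5 (0.963). The libraries share batches and the states share libraries, so these values are descriptions with no test.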

How the data were processed

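CD45+ brain cells of 10 libraries were profiled with 10x 3' chemistry. The authors aligned reads to mm10 with Cell Ranger, removed outlying cells with Scater and annotated cells after Seurat and harmony clustering, and they deposited raw UMI counts per gene and cell. The doublet score deposited by the authors for each cell was used only in an alternative, which left out the 7.63% of microglia with a score above 0.5. Cells under 2 sample names that match no label (6897 cells) were not used.

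Here counts were summed per library over all microglia, single states or classes of at least 20 cells (H2-T23 in NK cells also below that, where stated). Genes passing filterByExpr were tested with edgeR 4.0.16 (R 4.3.3; TMM, quasi-likelihood F test, pair as block), and p-values were adjusted over all genes tested by Benjamini-Hochberg. A call is an adjusted p under 0.05, and the SE is the size of the log2 fold change divided by the root of F. DESeq2 1.42.0, other scaling, no low-count filter, no block, single states, no doublets, the added fold limit of the study and leaving out each pair were alternatives. Tests in IRM alone, of age in T cells and BAM, and the split of DAM (with and without 1 library) were chosen after seeing the data. Members and lists were chosen with earlier results of these data known. All members are named, and of each list up to 4 of the genes called with the largest log2 fold changes that moved the same way in every pair. The scripts were tested on simulated data. Each library is 1 pool, and no genotype has a second pool of the same age. The p-values therefore rest on how an effect varies between pairs of libraries that differ in age or genotype, and not on replicate pools. Intervals of levels are exact Poisson and cover counting error only. Comparisons share libraries. Some genes of the lists are not reported here.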

Additional observations from a re-analysis of the deposited data

Results flagged for a closer look

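Of 60 groups of libraries examined, which overlap each other, 3 had a library in microglia set apart from the rest by more than Dixon's 95% limit, and chance flags about 1 in 20 groups. H2-Q7 in WT at 9 months stood at 39.9 CPM, against 13.7 to 23.3 CPM in the other non-transgenic libraries (n = 6). Tapbp in WT at 3 months stood at 175 CPM, against 188 to 193 CPM in the other non-transgenic libraries (n = 6). Tapbp in APP/PS1 NLRP3.KO at 3 months stood at 172 CPM, against 188 to 194 CPM in the other libraries without Nlrp3 (n = 5).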

How the results depend on the processing

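Of the log2 fold changes recomputed under alternatives, 293 stayed on the same side of the threshold in the same direction, 10 lost their call, 7 gained one and 30 turned direction. For 9 against 3 months in microglia, 3 members were called in IRM alone and 1 with the added fold limit, and 1 to 6 when 1 pair was left out; in BAM the fold limit left 0 and leaving out pairs 0 to 1. For the transgenes in microglia DESeq2 called 4 members and leaving out pairs gave 0 to 1, as it did for the transgene effect with against without Nlrp3 deletion. Dropping the pair block changed no count of members called. Some directions turned. For age, Tap1 was -0.036 in HM. For the transgenes, HM gave -0.021 for Tap2, -0.039 for Tapbp and -0.023 for Psmb8; IRM gave -0.19 for Tap1, -0.14 for Tap2, -0.014 for Tapbp, -0.17 for Psmb8 and -0.59 for Nlrc5; and Tap2 was -0.00046 with DESeq2 size factors and -0.00062 without the filter. For Nlrp3, IRM gave 0.033 for H2-K1, 0.081 for Tap2, -0.063 for Tapbp and 0.23 for Nlrc5. Leaving out pairs gave, for the transgenes, -0.023 to 0.025 for Tap2 and -0.027 to 0.069 for Tapbp, and for Nlrp3, -0.030 to 0.084 for B2m, -0.056 to 0.052 for H2-D1, -0.088 to 0.011 for H2-K1, -0.063 to 0.084 for H2-T23, -0.061 to 0.068 for Tap1, -0.025 to 0.00046 for Tap2, -0.0090 to 0.065 for Tapbp, -0.016 to 0.066 for Psmb8 and -0.25 to 0.089 for Nlrc5. The cause was not tested. Nlrc5 rests on 31 to 108 UMIs per library, which limits its precision.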
